A study of Mus musculus with 6 samples.

Results

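A group of 10 genes that define or mark the lineage and the dedifferentiation state of melanoma cells was examined in B16F10 cells depleted of OSGEP. The group was given as a fixed list of gene symbols: the transcription factors Sox10 and Pax3, the receptors Mc1r, Kit and Ednrb, the receptors Axl and Ngfr, and the transcription factors Sox9, Zeb1 and Zeb2. All 10 were found by symbol among the 55487 genes of the count table, and 7 of them were expressed highly enough to be tested.

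B16F10 is a mouse melanoma line, labelled WT in genotype. In the shCtr group (n = 3) the cells carried a control shRNA with a scrambled sequence, and in the shOSGEP group (n = 3) they carried an shRNA, the hairpin numbered 2 by the study, against the mRNA of OSGEP, the catalytic subunit of the complex that makes the t6A modification of tRNAs. Both groups were infected with lentivirus, selected with puromycin and grown in culture without treatment or immune cells. Only 1 hairpin was sequenced, and the 3 libraries of a group came from separate infections of the same line, so p-values measure the spread between infections. RNA was measured, and neither protein nor surface receptor was.

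Melanocytes arise from the neural crest. Sox10 and Pax3 act together to switch on Mitf, the master regulator of the pigment cell, and the receptors Mc1r, Kit and Ednrb carry the hormone, growth factor and endothelin signals that melanocytes depend on. Melanoma cells can leave this differentiated state for neural crest-like and undifferentiated states, which are known for drug tolerance and invasion. Textbook features, not all of them shared by these states, are loss of pigment genes and gain of receptors such as AXL and NGFR. Gain of SOX9 and of ZEB1 in place of ZEB2 is described as well. Loss of SOX10 belongs to the undifferentiated state.

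Axl was the member that differed most in the upward direction, and it was the only one of the 7 tested that passed the threshold used by the study. Sox10 and Mc1r were lower in shOSGEP on average, with most of the difference in the libraries of replicate 2. Pax3, Ngfr, Sox9 and Zeb2 overlapped between the groups and had log2FC between -0.17 and 0.27. Kit and Ednrb were under the limit of detection in all 6 libraries. Zeb1 was too low to be tested, with at most 10 counts in a library.

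The start regions of the genes with the largest differences in each direction, Axl and Mc1r, are shown first, as 300 bases each from RefSeq (GRCm38.p6), from 250 bases before to 50 bases after the start site, written 5′ to 3′ on the strand of the gene. RefSeq entries were at hand for 6 of the 10 members (Axl, Mc1r, Kit, Ednrb, Ngfr and Zeb2). Searched on both strands were the GC box GGGCGG, the AP-1 motif TGANTCA, the E-box CANNTG, the SOX motifs ACAAAG and ACAATG, and the core TGACG of the cyclic AMP response element. Capitals mark every match. The Axl window lies at chr7:25788684-25788983 on the minus strand, and the Mc1r window at chr8:123406832-123407131 on the plus strand.
Axl: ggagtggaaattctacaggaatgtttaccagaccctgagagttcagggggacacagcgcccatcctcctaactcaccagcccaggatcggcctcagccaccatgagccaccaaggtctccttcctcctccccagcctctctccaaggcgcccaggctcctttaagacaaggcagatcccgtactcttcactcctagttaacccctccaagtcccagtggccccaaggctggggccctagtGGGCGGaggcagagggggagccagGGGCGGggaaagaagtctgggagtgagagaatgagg
Mc1r: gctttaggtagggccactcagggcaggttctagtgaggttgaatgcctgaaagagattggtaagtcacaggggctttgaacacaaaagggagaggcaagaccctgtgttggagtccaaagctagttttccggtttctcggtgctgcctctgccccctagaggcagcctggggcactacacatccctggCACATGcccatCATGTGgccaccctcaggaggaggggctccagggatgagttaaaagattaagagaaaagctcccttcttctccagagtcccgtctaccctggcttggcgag

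The Axl window held 2 GC boxes, at -10 and 15 from the start site, and no match to the other motifs. Of 32851 mouse windows of this length, 35.7% held a GC box, the motif bound by SP1-type factors. The Mc1r window held 2 E-boxes, at -62 and -51, and both read CATGTG on one strand or the other, the form of the E-box bound by MITF. Any E-box was found in 72.3% of all windows and the CATGTG form in 14.2%. An AP-1 motif occurred in 7.81% of windows, a SOX motif in 28.6% and TGACG in 20.8%. These matches describe letters only, and the data do not measure binding.

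The depth was 18915587 to 29487384 counts per library. Osgep, the target of the hairpin, was lower in 3 of 3 same-numbered pairs, with log2 ratios of -2.24, -6.54 and -1.97. The 6 melanocyte markers were present in every library, and their summed level was 14800 to 28600 CPM (TMM-scaled counts relative to library size) in 5 libraries but 3380 CPM in shOSGEP replicate 2. The highest sum was in shCtr replicate 2, where Pmel was at 13300 CPM, against 3490 and 4560 CPM in shCtr replicates 1 and 3. Mitf was low in replicate 2 of both groups. It was at 339, 29.3 and 244 CPM in shCtr replicates 1 to 3 and at 331, 30.6 and 202 CPM in shOSGEP replicates 1 to 3. Markers of macrophages summed to 4.15 to 9.34 CPM with Ptprc and Adgre1 at 0, those of fibroblasts to 1.28 to 15.7 CPM with Dcn at 0, those of endothelium to 2.91 to 7.57 CPM with Cdh5 and Kdr at 0, and those of keratinocytes to at most 0.127 CPM with Krt1 and Krt10 at 0. Some other macrophage, fibroblast and endothelial markers were counted in every library. Cd68 held 13 to 152 counts, Lyz2 33 to 81, Pdgfra 13 to 105, Postn 12 to 278 and Vwf 60 to 154. Csf1r held 13 counts in shOSGEP replicate 2 and 0 elsewhere. The replicate 2 libraries stood apart: shCtr replicate 2 had a TMM factor of 0.69, against 1.04 to 1.14 in the others, and the middle 90% of tested genes spanned log2 ratios of -1.94 to 2.73 in that pair, against -0.58 to 0.74 in pair 1 and -0.48 to 0.71 in pair 3. The log2FC of each tested member and the median of each gene list are therefore also given without replicate 2.

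Across all 12669 tested genes the edgeR quasi-likelihood test called 0% at an adjusted p under 0.05, the smallest adjusted p being 1.00, and 0 of the 7 tested members were called. Osgep, the target of the hairpin, was not called either, at a log2FC of -3.29 (SE 0.876), while DESeq2 gave it an adjusted p of 0.0394. A gene that was not called is therefore not shown to be unchanged. An unadjusted p under 0.05 was reached by 1 member, Axl. With the log2FC beyond 0.5 that the study also required, the threshold was passed by 2.02% of all tested genes, 1.59% in the upward direction. DESeq2 called 14 genes over the table at an adjusted p under 0.05 and limma-voom with sample quality weights called 3, in both cases without a member among them. Groups did not overlap for 6.36% of tested genes, and for 3.49% with shOSGEP higher, and among the members this held for Axl alone. All 3 same-numbered pairs moved the same way for 34.8% of tested genes and for 3 of the 7 tested members, Axl, Mc1r and Zeb2.

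**Figure D1:**
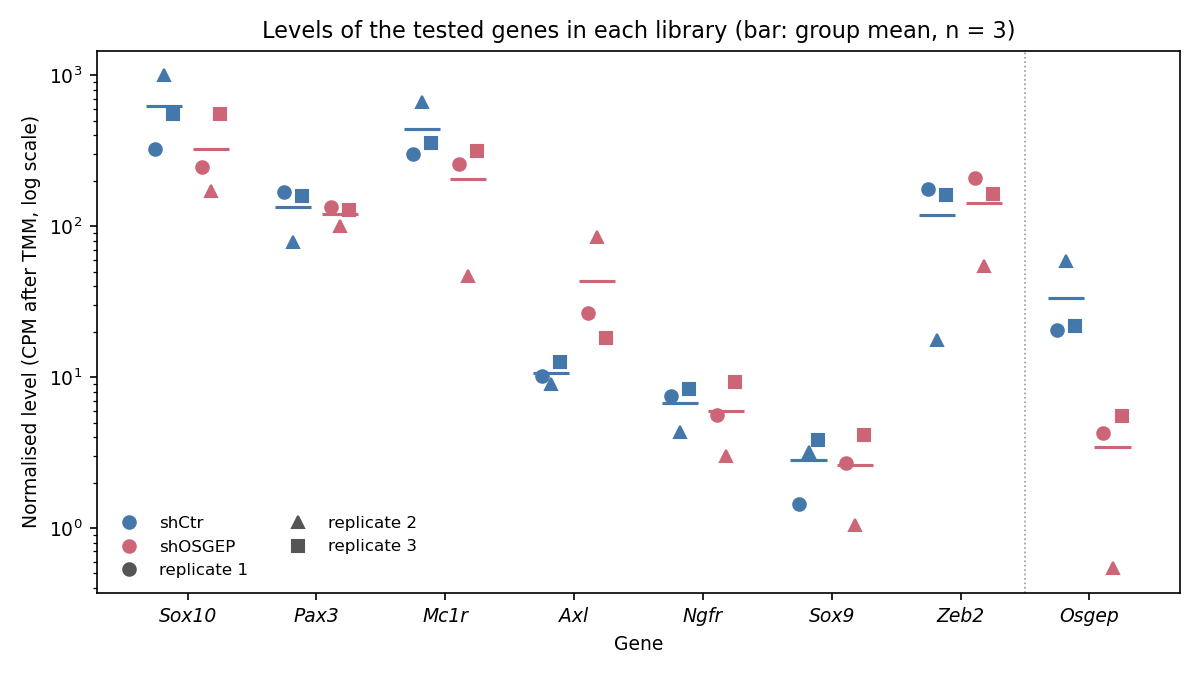
Level of each tested member, and of Osgep, in CPM after TMM scaling on a log axis, with 1 point per library, shaped by replicate number and coloured by group, and a bar at each group mean (n = 3). All 3 shOSGEP values of Axl (26.8, 85.4 and 18.2 CPM) sit above its shCtr values (10.1, 8.95 and 12.6 CPM), while the groups of the other 6 members overlap.

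The lineage factors were examined first. Sox10, the SRY-box factor that specifies and maintains melanocytes, lies on chromosome 15 from 79154908 to 79165240 on the minus strand (GRCm38). In order of replicate number, as throughout, it was measured at 325, 999 and 554 CPM for shCtr against 246, 171 and 555 CPM for shOSGEP. The groups overlapped, and the highest and the lowest of the 6 values were both from replicate 2.

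The Sox10 means were 626 ± 343 CPM (SD, n = 3) in shCtr and 324 ± 204 CPM (SD, n = 3) in shOSGEP. The log2FC was -0.95 (SE 0.612, 95% interval -2.35 to 0.45), with an adjusted p of 1.00 and an exact permutation p of 0.3 (two-sided). Within pairs the log2 ratios were -0.40, -2.55 and 0.00. In bulk RNA, a lower level in each cell and fewer cells that express a gene cannot be told apart. Pair 3 showed no difference in Sox10, and without replicate 2 the log2FC was -0.13. Without shOSGEP replicate 3 it was -1.59 and Sox10 passed the study's threshold, with an unadjusted edgeR p of 0.0487, beside 2.98% of all genes.

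Pax3, the paired-box factor that acts with Sox10 upstream of Mitf, lies on chromosome 1 from 78101267 to 78197134 on the minus strand. It was measured at 168, 79 and 158 CPM for shCtr against 135, 99.7 and 128 CPM for shOSGEP. Replicate 2 was lowest in both groups. The log2FC was -0.16 (SE 0.428, 95% interval -1.14 to 0.82), the adjusted p 1.00 and the exact permutation p 0.9. The log2 ratios were -0.31, 0.33 and -0.31, so pairs 1 and 3 lay on the same side by the same amount and pair 2 on the other. Without replicate 2 the log2FC was -0.31, with an adjusted edgeR p of 1.00.

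Compared per kb of their longest transcript, Sox10 was the most abundant member, with a mean of 225 ± 123 CPM per kb in shCtr (SD, n = 3) and 117 ± 73.3 CPM per kb in shOSGEP (SD, n = 3). Mc1r followed with 122 ± 54.7 and 56.6 ± 38.6 CPM per kb, and its range overlapped that of Sox10 in both groups. Pax3 came next with 35 ± 12.6 and 31.3 ± 4.85 CPM per kb, below every value of Mc1r in shCtr but not in shOSGEP. In 5 libraries the order Sox10, Mc1r, Pax3 held, while in shOSGEP replicate 2 Mc1r (12.9 CPM per kb) stood below Pax3 (25.8 CPM per kb). Zeb2 followed with 12.9 ± 9.58 and 15.6 ± 8.72 CPM per kb, below every value of Pax3 within the same group. Axl was at 2.48 ± 0.442 CPM per kb in shCtr and at 10.2 ± 8.57 CPM per kb in shOSGEP, and overlapped Zeb2 in both groups. Ngfr was at 1.96 ± 0.621 and 1.74 ± 0.921 CPM per kb, a range that overlapped that of Axl in shCtr but not in shOSGEP, and Sox9 was lowest at 0.683 ± 0.299 and 0.634 ± 0.371 CPM per kb, overlapping Ngfr in shOSGEP but not in shCtr.

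Of the melanocyte receptors, Mc1r alone was expressed above the floor of 3 counts. Mc1r encodes the melanocortin receptor, which raises cyclic AMP when bound by the hormone made from Pomc and so drives dark pigment synthesis. It lies on chromosome 8 from 123407107 to 123410744 on the plus strand. It was measured at 303, 670 and 354 CPM for shCtr against 258, 47 and 313 CPM for shOSGEP. The groups overlapped only by shOSGEP replicate 3 (313 CPM) lying above shCtr replicate 1 (303 CPM), and shOSGEP replicate 2 was lowest by far.

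The Mc1r means were 443 ± 199 CPM (SD, n = 3) in shCtr and 206 ± 140 CPM (SD, n = 3) in shOSGEP. The log2FC was -1.10 (SE 0.695, 95% interval -2.70 to 0.49), with an adjusted p of 1.00 and an exact permutation p of 0.2. Mc1r was lower in shOSGEP in 3 of 3 pairs, with log2 ratios of -0.24, -3.83 and -0.18. The ratio in pair 2 lay at the 0.355th percentile of all tested genes, and those of pairs 1 and 3 at percentiles 24.3 and 26.8, near the lower quartile. Without replicate 2 the log2FC was -0.20. The low sum of the melanocyte markers (3380 CPM) was in the same library as the lowest Sox10 and Mc1r values, and its part in those results was not tested.

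Some limits apply to the Mc1r counts. Of its 31-base words, 20.1% also occur in another annotated gene, so reads may have been divided between genes. Its span lies inside that of Gm20388 on the same strand, but the exon overlap with that gene was 0 bases. The antisense gene Gm38092 covers 17.9% of the Mc1r exon and held at most 1 count per library. Pomc, the ligand precursor, was at 0.552, 3.74 and 0.784 CPM for shCtr against 0.651, 4.88 and 1.78 CPM for shOSGEP, low in all libraries and highest in replicate 2 of each group. Its log2FC was 0.53 (SE 0.954).

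Kit and Ednrb were not detected above the floor. Kit, the receptor of stem cell factor, is on chromosome 5 from 75574916 to 75656722 and had 0 counts in each of the 6 libraries. Ednrb, the endothelin receptor of the melanocyte lineage, is on chromosome 14 from 103814625 to 103844402 and had 1 count in shCtr replicate 1 and 0 elsewhere. A count of 0 allows up to 3 counts per library, or 0.116 to 0.147 CPM, so no fold is given for either gene. These receptors, known from melanocytes, were thus at or under the floor in shCtr and shOSGEP alike.

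The ligands of these receptors were scarce too. Kitl, which encodes stem cell factor, had 33, 1 and 18 counts in shCtr and 29, 6 and 15 counts in shOSGEP, and its log2FC was -0.06 (SE 1.01). Edn1, Edn2 and Edn3, the endothelins, had 0 counts in every library.

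The receptors of the dedifferentiated states came next. Axl encodes a receptor tyrosine kinase of the TAM family (Tyro3, Axl and Mertk), which binds GAS6. It lies on chromosome 7 from 25757273 to 25788705 on the minus strand, none of its 31-base words occurs in another gene, and its start region is the first sequence printed above. It held 238, 182 and 274 counts in shCtr and 577, 2204 and 430 counts in shOSGEP. Scaled, this was 10.1, 8.95 and 12.6 CPM in shCtr and 26.8, 85.4 and 18.2 CPM in shOSGEP. The groups did not overlap, the shCtr libraries were close together, and shOSGEP replicate 2 was highest.

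The Axl means were 10.6 ± 1.88 CPM (SD, n = 3) in shCtr and 43.5 ± 36.5 CPM (SD, n = 3) in shOSGEP. The log2FC was 2.04 (SE 0.637, 95% interval 0.58 to 3.50). The unadjusted p in edgeR was 0.012, past the study's threshold, and the adjusted p over all tested genes was 1.00. By exact permutation the two-sided p was 0.1, which is the lower bound in a design of 3 against 3. Axl was higher in 3 of 3 pairs, with log2 ratios of 1.40, 3.24 and 0.53, at percentiles 98.8, 97.7 and 91.9 of the tested genes of each pair. The pair with the largest ratio for Axl was also the one with the lowest Osgep ratio and with the widest spread over all tested genes. A relation of Axl to the degree of Osgep depletion was not tested.

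Axl did not depend on replicate 2 for its direction or for its side of the study's threshold. Without both libraries of that number the log2FC was 0.99 (SE 0.325) with an unadjusted edgeR p of 0.0238 and an adjusted p of 1. With the replicate number as a block the edgeR log2FC was 1.71 and the adjusted p 0.741. Limma-voom with sample quality weights and the block gave 1.19 for the log2FC with an adjusted p of 6.45e-10, in a fit that called 11.1% of all tested genes. That fit was the sole one of those tried in which Axl, or any member, passed an adjusted p under 0.05.

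The other TAM receptors did not share the pattern of Axl. Tyro3 was at 21.9, 65.1 and 28.5 CPM for shCtr against 24.7, 11.9 and 30 CPM for shOSGEP, with a log2FC of -0.79 (SE 0.57). Mertk was at 4.04, 1.33 and 3.46 CPM and at 5.58, 1.08 and 2.76 CPM, with a log2FC of 0.09 (SE 0.729). Both overlapped between the groups and neither passed a threshold. Among the ligands, Gas6 had at most 1 count in any library. Pros1, which encodes protein S, the ligand of Tyro3 and Mertk, was at 42.8, 9.29 and 29.7 CPM for shCtr against 62.3, 41.7 and 30 CPM for shOSGEP, with a log2FC of 0.71 (SE 0.601).

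Ngfr encodes the low-affinity neurotrophin receptor p75, or CD271, a marker of neural crest stem cells. It lies on chromosome 11 from 95568818 to 95587735 on the minus strand. It was measured at 7.52, 4.33 and 8.39 CPM for shCtr against 5.58, 3.02 and 9.33 CPM for shOSGEP. Replicate 2 was lowest in both groups, and the groups overlapped. The log2FC was -0.17 (SE 0.573, 95% interval -1.49 to 1.14), with an adjusted p of 1.00 and log2 ratios of -0.42, -0.50 and 0.15, and without replicate 2 the log2FC was -0.09. Its ligand Ntf3 had 0 counts throughout. Ntf5, also a ligand, held 16, 58 and 17 counts in shCtr and 15, 57 and 12 counts in shOSGEP, with a log2FC of -0.33 (SE 0.823). Bdnf, another ligand, had 0, 0 and 1 counts in shCtr and 10, 88 and 2 counts in shOSGEP, and it was too low in too many libraries to be tested.

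**Figure D2:**
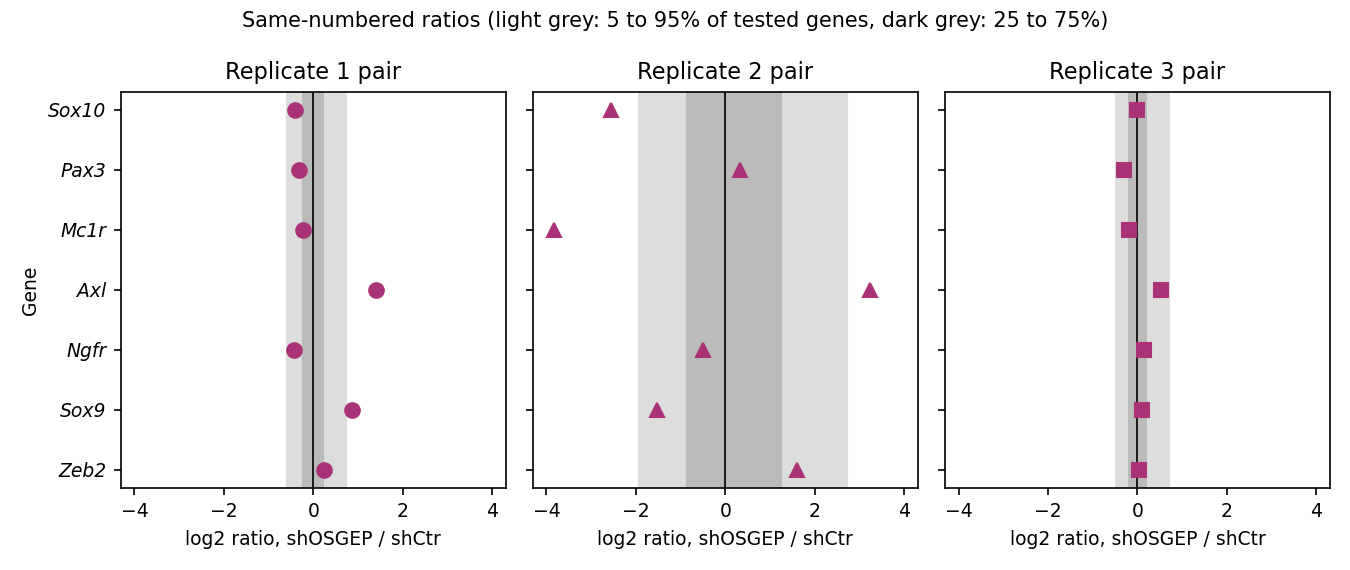
Log2 ratio of shOSGEP to shCtr for each tested member (rows) within each same-numbered pair (panels), on a common axis, over the range of 5 to 95% (light grey) and 25 to 75% (dark grey) of all tested genes. Axl is to the right of 0 in 3 of 3 panels, and pair 2 has the widest grey range, -1.94 to 2.73, with Mc1r at -3.83, Sox10 at -2.55 and Axl at 3.24 outside it.

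Among the switch factors, Sox9, the SRY-box factor of the neural crest that is antagonistic to Sox10 in melanoma, was low in every library. It lies on chromosome 11 from 112782224 to 112787760 on the plus strand. It held 34, 65 and 83 counts in shCtr and 58, 27 and 97 counts in shOSGEP, or 1.44, 3.2 and 3.83 CPM and 2.7, 1.05 and 4.12 CPM. The log2FC was -0.11 (SE 0.672, 95% interval -1.65 to 1.43), with an adjusted p of 1.00. The log2 ratios of 0.86, -1.53 and 0.10 pointed in different directions, and without replicate 2 the sign turned, to a log2FC of 0.38. Limma-voom with quality weights and the block gave 0.57, past the study's threshold with an unadjusted p of 0.0239, in a fit where 11.4% of all genes passed it.

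Zeb1 and Zeb2 encode related zinc finger repressors of epithelial genes, of which ZEB2 belongs to the melanocyte and ZEB1 to the dedifferentiated state. Zeb1, on chromosome 18 from 5591860 to 5775467, held 1, 0 and 4 counts in shCtr and 10, 7 and 4 counts in shOSGEP. The 2 groups touched at 4 counts, and shCtr was at or near the floor of 3 counts. Zeb1 did not pass the filter, and with no filter its log2FC was 1.89 (SE 1.27, edgeR adjusted p 0.959).

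Zeb2, on chromosome 2 from 44983632 to 45117395 on the minus strand, was measured at 176, 17.6 and 160 CPM for shCtr against 209, 54.1 and 164 CPM for shOSGEP. Replicate 2 was the lowest library in both groups, and the other 4 libraries lay between 160 and 209 CPM. The log2FC was 0.27 (SE 0.818, 95% interval -1.61 to 2.14), with an adjusted p of 1.00, and 0.15 without replicate 2. The log2 ratios were 0.24, 1.61 and 0.04. The antisense gene Zeb2os, which covers 3.27% of the Zeb2 exons and cannot be told apart there without strand, was at 1.81 to 4.96 CPM. Of this pair of genes, Zeb2 was thus the one well above the floor in both groups.

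The cofactors and targets of the ZEB proteins were examined as a list of 12 genes, of which 3 were tested, with a median log2FC of -0.14, or -0.17 without replicate 2. Ctbp1 and Ctbp2, the corepressors, had log2FC of -0.50 (SE 0.464) and -0.14 (SE 0.416). Cdh1, which encodes E-cadherin and is the best known ZEB target, held 15, 3 and 10 counts in shCtr and 19, 10 and 10 counts in shOSGEP, with a log2FC of 0.43 (SE 0.71). None of the 3 passed a threshold. A count of 0 in every library was found for 3 of the 12 genes.

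The GC content and length of the transcripts moved with the levels of some members in replicate 2, and the 2 properties were fitted together. For each library, the deviation of every tested gene from its mean over the 6 libraries was fitted by GC content and transcript length, and the fit took up 16.1 to 60% of the variance, most in shCtr replicate 2. Zeb2, at 40.6% GC the lowest of the 7 members, deviated by -2.48 (log2) in shCtr replicate 2, and the trend alone gave -2.45 there. After the trend was removed its deviations lay between -0.21 and 0.32 in all 6 libraries, and its log2 ratios were 0.07, -0.10 and 0.12. What set the trend was not tested. Sox10, at 61.8% the highest, deviated by 1.31 in shCtr replicate 2, of which the trend gave 1.01, and its corrected log2 ratios were -0.35, -1.51 and -0.31.

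Mc1r and Axl kept their large ratios in replicate 2 after the same correction. For Mc1r (53.6% GC) the corrected log2 ratios were -0.26, -3.36 and -0.23, and its groups no longer overlapped, as held for 12.1% of all genes after the correction, with corrected deviations of 0.48, 0.95 and 0.49 in shCtr and 0.22, -2.41 and 0.27 in shOSGEP. For Axl (54.2% GC) the corrected log2 ratios were 1.36, 3.76 and 0.48. In edgeR with these offsets and the replicate block, the Axl log2FC was 1.83 with an unadjusted p of 0.0507, just short of the study's threshold, while 6.51% of all genes passed it. None of the 7 members passed in that fit.

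**Figure D3:**
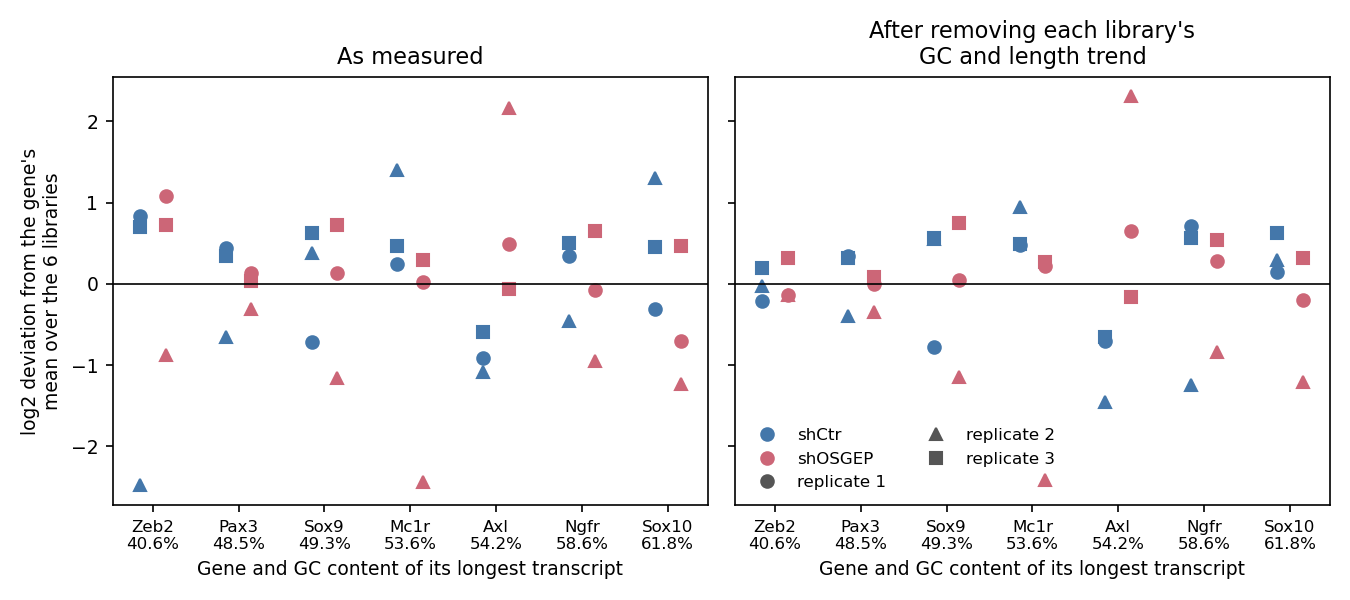
Log2 deviation of each tested member from its own mean over the 6 libraries, as measured (left) and after the GC and length trend of each library was removed (right), with members ordered by the GC content of the longest transcript and points coloured by group and shaped by replicate. The low point of Zeb2 in shCtr replicate 2 (-2.48) moves to -0.03, whereas the low point of Mc1r in shOSGEP replicate 2 stays at -2.41.

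The genes known to accompany each state were then counted in 4 further lists, against a median log2FC of -0.03 over all tested genes. Of 21 melanocytic genes, the 6 melanocyte markers among them, 19 were tested, 17 with a log2FC below 0 and 2 above, and the median was -0.63. No gene of the list passed the study's threshold, which 2.02% of all genes passed (0 had an unadjusted edgeR p under 0.05), and over the alternatives 0 to 3 passed: 3 without shCtr replicate 1, 2 each without shCtr replicate 3, without replicate 1 and with no filter, and 1 each without replicate 3, in DESeq2 and in the 2 fits of limma-voom and of the offsets that had the block. In these fits 1.24% to 11.4% of all genes passed, with 3.5% without shCtr replicate 1. The median within pairs was -0.03, -1.93 and -0.11, and without replicate 2 it was -0.08. It was -0.40 without shCtr replicate 2 alone and -0.34 without shOSGEP replicate 2 alone. Only Dct, a melanin-synthesis enzyme named here after its values were seen, had groups that did not overlap, with shOSGEP lower (log2FC -0.91, SE 0.721). The same held for 2.87% of all genes. The log2 ratios of Dct were -0.25, -3.30 and -0.38, largest in pair 2. The genes with the smallest p were Trpm1, a melanocyte channel (log2FC -1.66, SE 0.779), Oca2, a melanosome transporter (-2.49, SE 1.17), Gpr143, a melanosome receptor (-1.22, SE 0.635), and Mlana, a melanosome antigen (-0.72, SE 0.495). Trpm1 shows what lies behind these values, at 68.9, 432 and 71.2 CPM in shCtr and 64.3, 35 and 81 CPM in shOSGEP, with replicate 2 as the highest and the lowest library.

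Of 18 neural crest-like genes 10 were tested, 3 with a log2FC above 0 and 7 below, with a median of -0.34 and pair medians of -0.16, -0.55 and -0.14. The median was -0.12 without replicate 2, -0.02 without shOSGEP replicate 2, -0.07 without shCtr replicate 3 and -0.61 without shOSGEP replicate 3, so its size rested on single libraries. Among the leading genes by p were Gfap (log2FC -0.53, SE 0.51), known from glia, L1cam (0.53, SE 0.632), an adhesion molecule of the neural crest, and Aqp1 (-0.44, SE 0.597), a water channel. None of the 10 passed the study's threshold. In edgeR with the GC and length offsets and the block 2 did, beside 6.51% of all genes. In limma-voom with quality weights and the block 1 did, beside 11.4% of all genes. A further 6 of the 18 listed genes had 0 counts in every library.

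Of 31 genes of the undifferentiated state 18 were tested, 11 with a log2FC above 0 and 7 below, with a median of 0.12, pair medians of 0.14, 0.52 and -0.03, and a median of 0.06 without replicate 2. Ccn1, a matricellular target of YAP and TEAD, passed the study's threshold as 1 of 18, beside 2.02% of all genes. It was at 22.5, 9.14 and 30.4 CPM for shCtr against 39.1, 97 and 33.5 CPM for shOSGEP, with no overlap. Its log2FC was 1.45 (SE 0.617) with an adjusted edgeR p of 1.00, and its log2 ratios were 0.80, 3.39 and 0.14. No gene of the list passed without replicate 2, without shOSGEP replicate 2, without shCtr replicate 1, with the replicate block in edgeR or in limma-voom with quality weights. In limma-voom with quality weights and the block 6 of the 18 passed, as did 11.4% of all genes. Without shCtr replicate 3, without shOSGEP replicate 1 or without replicate 3, 2 passed, beside 1.24% to 1.61% of all genes.

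Further down that list, Pdgfrb, a platelet-derived growth factor receptor, also had groups that did not overlap, at 8.12, 4.42 and 9.18 CPM for shCtr against 13, 15.3 and 11.4 CPM for shOSGEP (log2FC 0.87, SE 0.474), without passing the threshold. In the other direction, Jun, a subunit of AP-1 named after its values were seen, did not overlap either, at 23.3, 27.9 and 25.8 CPM for shCtr against 14.1, 16.4 and 20.7 CPM for shOSGEP (log2FC -0.59, SE 0.401). Thus 2 of the 18 were higher and 1 lower without overlap, against 3.49% and 2.87% of all genes. Fn1, fibronectin, had a log2FC of 1.25 (SE 0.603) and log2 ratios of 0.87, 3.11 and 0.01. Tead2, a partner of YAP, had a log2FC of -0.99 (SE 0.584). Of the 31 listed genes, 8 had 0 counts in every library. Among these 8, picked out after their values were seen, were Egfr and Wnt5a, a receptor and a ligand known with AXL from undifferentiated human lines.

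Of 27 ligands and partners of the member receptors, 26 were matched by symbol and 14 tested, 6 with a log2FC above 0 and 8 below, with a median of -0.04, or 0.05 without replicate 2. None passed the study's threshold, and at most 1 did in any alternative, beside 1.24% to 11.4% of all genes in the fits where 1 did. The median was -0.33 without shOSGEP replicate 1. Beside Tyro3 and Pros1, given above, the leading genes by p were Shc1, an adaptor of receptor tyrosine kinases (log2FC -0.55, SE 0.409), and Sort1, sortilin, which acts with p75 (-0.58, SE 0.457).

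**Figure D4:**
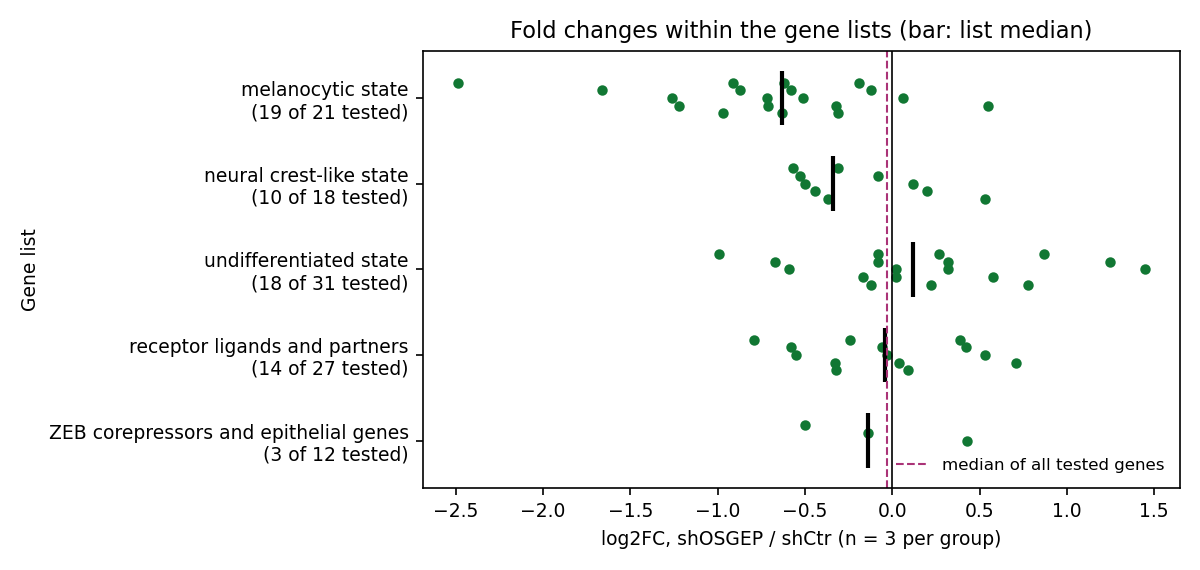
Log2FC of shOSGEP against shCtr (n = 3 per group) for each tested gene of the 5 lists, with a black bar at the median of each list and a dashed line at the median of all tested genes (-0.03). The melanocytic genes lie mostly to the left, with a median of -0.63, and the 18 undifferentiated genes lie on both sides, between -0.99 and 1.45.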

How the data were processed

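PolyA RNA was sequenced in paired reads of 100 bases with a kit that does not mark strand. Trimming (TrimGalore), alignment to GRCm38 (STAR 2.6.1d) and quantification (Salmon 1.4.0) were done by the authors. The deposited values are whole-number estimated counts for each Ensembl gene and library, neither normalized nor filtered. The annotation release is not given in the sources used here. Salmon divides reads shared between genes by likelihood, so genes with shared sequence carry uncertain counts.

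The 10 members and the gene lists were chosen with earlier results of these data known, so no count over them is independent support. The labels gave the group and replicate number of each library. Genes were filtered with filterByExpr (minimum count 10, minimum total 15) and tested two-sided in edgeR 4.0.16 under R 4.3.3 (quasi-likelihood, TMM scaling, no block), with Benjamini-Hochberg adjustment over 12669 genes. The study's threshold was a log2FC beyond 0.5 with an unadjusted p under 0.05. Pair ratios used log2 CPM with a prior count of 2. For single genes the group means of log2 CPM were compared by exact permutation. GC content, length and positions came from GENCODE M21 (GRCm38), promoters from RefSeq. The trend was fitted by natural splines with 5 degrees of freedom for each of GC content and log2 length. The named genes were the 10 members, Osgep, the ligands and partners beside a member, some of the cell type markers, and up to 4 genes of smallest unadjusted p per list. Some genes that this rule covers are not reported here.

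Alternatives were DESeq2 1.42.0, limma-voom (limma 3.58.1) with sample quality weights, with and without a replicate block, RLE and upper-quartile scaling, other filters, the block in edgeR, GC and length offsets with the block, an adjusted p under 0.1, and leaving out libraries. The deviations of same-numbered libraries from their group means correlated at 0.811, 0.557 and 0.196 across genes, all above the limit of 0.1, so the shared replicate numbers of the labels were treated as pairs, although the labels do not say what a number marks and the highest correlation between different numbers was 0.491. The floor of 3 counts, 0.116 to 0.147 CPM, covers counting error only. Scripts were tested on simulated data.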

Additional observations from a re-analysis of the deposited data

How the results depend on the processing

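The direction of the Axl difference and its place past the study's threshold held under DESeq2, both scalings, both filters, limma-voom, the replicate block and each library or pair left out, with a log2FC of 0.99 to 2.55 and, over all alternatives, an adjusted p of 6.45e-10 to 1. The exception was the fit with GC and length offsets and the replicate block (log2FC 1.83), where 0 members passed that threshold and 2, Axl and Mc1r, did not overlap between groups, beside 12.1% of all genes. Limma-voom with quality weights and the replicate block called 1 member by adjusted p (Axl), beside 11.1% of all genes. It called 2 by the study's threshold (Axl and Sox9), beside 11.4% of all genes, and it reversed Sox9 to a log2FC of 0.57. The replicate block in edgeR changed no call of a member. An adjusted p under 0.1 called 0 members.

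With libraries left out, 1 to 2 members passed the study's threshold and 1 to 3 did not overlap, Axl in each case, while 0.516% to 3.5% of all genes passed and 9.2% to 23.6% did not overlap, so the rise in members without overlap came with a rise over all genes. Without shOSGEP replicate 3 Sox10 passed as well. The leave-out log2FC ranged from -0.66 to 0.16 for Ngfr, -0.43 to 0.03 for Pax3, -0.60 to 0.38 for Sox9 and -0.24 to 0.68 for Zeb2, so each of these reversed in some fit, while Mc1r (-1.69 to -0.20) and Sox10 (-1.67 to -0.13) stayed below 0 and were smallest without replicate 2. The cause was not tested.

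For Kit and Ednrb, under the floor, no difference was detectable at this depth, and Zeb1 was too low to pass the filter. The biological coefficient of variation was 0.566, or 0.385 with the block. The counts of list genes past the study's threshold moved with the setting, from 0 to 3 for the melanocytic list, 0 to 2 for the neural crest-like list, 0 to 6 for the undifferentiated list and 0 to 1 for the ligands and partners, and stayed at 0 for the ZEB list. The share of all genes past it moved as well, from 0.516% without shOSGEP replicate 2 to 11.4% in limma-voom with the block. It was 11.4% in the fit that gave the 6, 6.51% in that with the 2 and 3.5% in that with the 3.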
